A study of Mus musculus with 4 samples.

Results

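CpG-rich regions of open chromatin that lie far from every transcription start of the GENCODE M21 annotation were described in ATAC-seq data of mouse glioblastoma (GBM) tumors. Overlapping peaks (1 bp or more in common) from the 4 libraries were joined into regions, and a region was kept if all 4 libraries had a peak in it, if it lay on an autosome and if its midpoint was 5 to 100 kb from the nearest transcription start of any gene type in GENCODE M21. Of these, regions with a GC content of at least 50% and an observed over expected CpG ratio of at least 0.6 over the whole merged interval were called CpG-rich distal regions. The CpG ratio is the number of CpG sites divided by the number that the region's own C and G content would give by chance. The rule kept 323 of 122166 merged regions, or 1.37% of the 23624 distal regions with a peak in all 4 libraries. The regions were thus chosen by base composition, distance and the presence of a peak in every library. The height of a called peak, its place in gene models, its copy number in the genome and its difference between groups did not enter the rule. The need for a peak in every library did set a floor on height, and it left out regions with a peak in 1 group alone.

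The libraries came from 2 tumors grown in WT mice and 2 tumors grown in Esm1 KO mice, all of the C57BL/6 strain. The product of Esm1 is Endocan, an endothelial proteoglycan, and the deletion was carried by the host and not by the tumor cells, so the labels could not be checked at the deleted gene. All 4 tumors arose from the single murine line mG7080, which the study grew as tumorspheres from tumors of mice with deletions that included Trp53 and Nf1, and which was injected into the brains of female mice. The labels name tumor tissue as the material, the study's methods name freshly isolated tumor cells and its results name cells grown as spheres from the tumors, so whether host cells were present is not settled, and no source says that equal replicate numbers mark tumors that belong together. The peak list of KO replicate 2 was named on another pattern than the other 3, and its group rests on the sample title. ATAC-seq cuts accessible DNA with a transposase and sequences the fragments, so that a peak marks a stretch of open chromatin. Peak height is given here as the pileup at the summit, meaning the number of reads that overlap it after any extension by the peak caller, and relative height as that number divided by the library's genome-wide background of 4.41 and 6.85 reads in the WT and 6.03 and 6.71 in the KO libraries, replicate 1 first. The lists held 63000, 100088, 82975 and 85418 peaks in the same order. A promoter peak was found at 6 or 7 of 7 neuronal marker genes, at 3 or 4 of 5 oligodendrocyte precursor markers and of 5 astrocyte markers, at 2 to 5 of 6 mature oligodendrocyte markers, at 1 to 3 of 8 endothelial markers and at 0 to 2 of 8 microglial markers in each library. None of these marker genes was the nearest gene of a CpG-rich distal region, and the part of host cells in the results below was not tested.

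In mammalian genomes most CpG sites are methylated, and methylated cytosines are lost over evolution, so that CpG is rare in bulk DNA. CpG islands are the exception, being stretches that stay unmethylated in the germ line and keep their CpG sites. Most islands cover promoters, where they are bound by CXXC-domain proteins, Sp and KLF factors and the transcription machinery. Islands away from annotated promoters, often called orphan islands, can be promoters of unannotated transcripts, enhancers of developmental genes, coding exons or repeated sequence, and can be marked by Polycomb proteins.

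Here and below, a region near a gene is one for which that gene has the nearest coding start, at whatever distance. A set of 5 regions on which the results turn is shown as the 200 bases around the peak summit, from the plus strand of GRCm38, in lower case with every CpG site in capitals. They are the tallest and second tallest regions apart from a tandem array (near Gm8797, chr3:5860528-5860727, and in an intron shared by Filip1l and Cmss1, chr16:57391392-57391591), the tallest copy of that array (nearest coding gene Pdia4, chr6:47748735-47748934), the tallest single-copy region between genes with no RefSeq start within 1 kb (near Ptma, chr1:86487434-86487633) and the region with the highest CpG ratio (a coding exon of Apba1, chr19:23893256-23893455).
Gm8797: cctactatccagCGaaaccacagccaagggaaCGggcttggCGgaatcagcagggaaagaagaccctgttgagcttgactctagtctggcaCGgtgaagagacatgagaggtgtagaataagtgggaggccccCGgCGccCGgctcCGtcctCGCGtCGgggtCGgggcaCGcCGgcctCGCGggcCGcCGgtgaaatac
Filip1l: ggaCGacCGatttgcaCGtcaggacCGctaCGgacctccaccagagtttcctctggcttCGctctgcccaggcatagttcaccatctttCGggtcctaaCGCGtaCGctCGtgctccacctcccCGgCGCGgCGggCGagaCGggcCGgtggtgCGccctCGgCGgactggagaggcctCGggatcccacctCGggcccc
Pdia4: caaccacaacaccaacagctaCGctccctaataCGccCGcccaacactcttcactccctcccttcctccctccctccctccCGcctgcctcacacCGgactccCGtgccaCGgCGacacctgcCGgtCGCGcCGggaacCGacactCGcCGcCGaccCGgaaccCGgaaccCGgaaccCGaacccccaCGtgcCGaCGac
Ptma: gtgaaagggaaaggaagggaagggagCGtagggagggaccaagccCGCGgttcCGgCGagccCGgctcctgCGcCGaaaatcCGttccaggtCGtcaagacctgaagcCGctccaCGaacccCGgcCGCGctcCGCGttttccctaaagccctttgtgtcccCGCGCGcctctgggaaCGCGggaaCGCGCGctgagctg
Apba1: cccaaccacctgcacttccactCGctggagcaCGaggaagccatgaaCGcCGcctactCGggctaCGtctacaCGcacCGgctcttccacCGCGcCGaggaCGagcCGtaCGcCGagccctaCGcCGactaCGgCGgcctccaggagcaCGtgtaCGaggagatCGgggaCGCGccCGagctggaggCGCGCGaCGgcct
These windows held 18, 23, 23, 25 and 29 CpG sites in the order given. The median was 19 sites per summit window over the 323 regions, against 3 over the 23301 CpG-poor distal regions and 21 over the 9256 CpG-rich regions within 1 kb of a transcription start, which are called CpG-rich promoters below. The rule on composition acts on the difference from CpG-poor regions.

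The regions were wider than CpG-poor ones, with a median of 1001 bp (range 307 to 2539) against 761 bp. They held a median of 63 CpG sites against 10, a number on which the rule itself also acts. By the rule itself their GC content and CpG ratio were higher, with medians of 60.0% and 0.72 against 47.2% and 0.23, and CpG-rich promoters had 61.6% and 0.76. The threshold of composition cut a continuous range. For GC, the 2 regions just inside the GC threshold were near Ccdc184 at 50% and near Spred2 at 50.1%, and the 2 just outside were near Fcgr4 at 49.9% and near 1500015O10Rik at 49.96%. At the CpG ratio threshold, regions near Cacna2d2 at 0.6006 and Glis2 at 0.6007 were kept, and regions near C87436 at 0.598 and Enpp7 at 0.599 were not. At the lower distance bound, regions near Nfib at 5084 bp and B4galnt1 at 5135 bp were kept, and regions near Fcrlb at 4920 bp and Aaas at 4939 bp were not. At the upper bound the outermost regions kept were near Efcab1 at 84892 bp and Dtna at 93946 bp, and those just beyond it were near Rims1 at 100819 bp and Lmx1a at 113219 bp.

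CpG-rich distal regions lay mostly between genes and, unlike CpG-poor ones, often in coding exons. Of the 323 regions, 192 (59.4%) had their summit window between genes, 58 (17.96%) touched a coding exon, 47 (14.6%) lay in an intron of a protein-coding gene, 18 (5.57%) in an intron of a noncoding gene, 6 (1.86%) in a noncoding exon and 2 (0.619%) in a UTR. Among CpG-poor distal regions the shares were 43.1% between genes, 2.07% in coding exons and 47.9% in introns of protein-coding genes. These shares are counts of annotated positions and carry no test. Each of the 58 exonic regions lay in a gene of its own. The tallest lay in exons of Zfp771 (relative height at least 20.9 in every library, nearest start that of Dctpp1), of Nrg2, a neuregulin growth factor (at least 15.9), of Trim14 (at least 14.2, nearest start that of Nans), of Ano8 (at least 13.9, nearest start that of Dda1) and of Snx20, a sorting nexin (at least 13.7). The share in exons was 12.4% for regions at least 10 kb from a start, and 26.7% for regions with a GC content of at least 55% and a CpG ratio of at least 0.65. Where the composition was read in the 200 bp summit window in place of the whole interval, 976 regions passed, 290 of them among the 323, and 10.5% lay in exons.

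**Figure D1:**
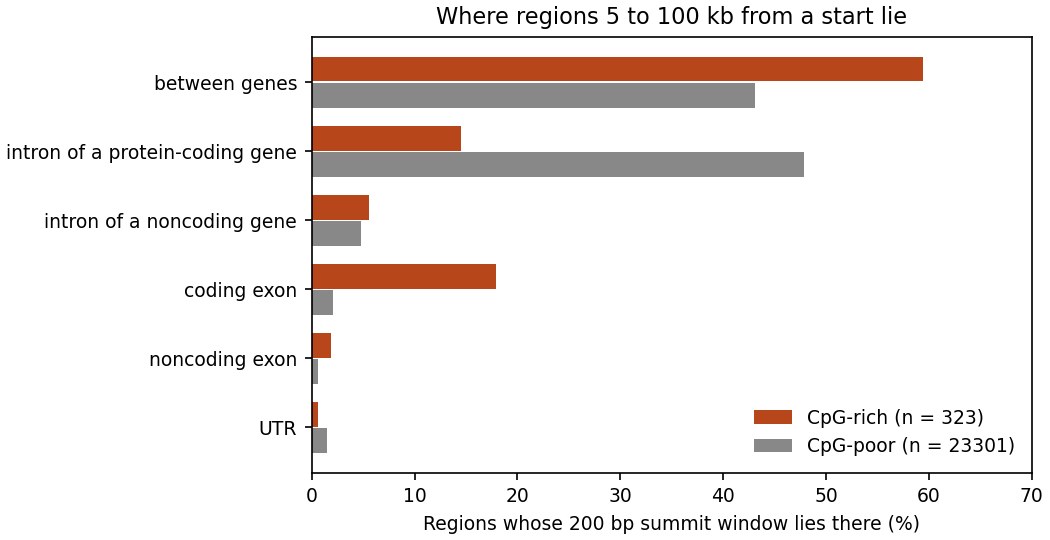
Percent of CpG-rich (n = 323) and CpG-poor (n = 23301) distal regions whose 200 bp summit window lay in each part of GENCODE M21 gene models, as horizontal bars from 0. Coding exons held 17.96% of CpG-rich and 2.07% of CpG-poor regions, and introns of protein-coding genes held 14.6% and 47.9%.

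The distance to a start was short within the allowed span. A total of 121 regions (37.5%) lay 5 to 10 kb from a start, 129 (39.9%) 10 to 25 kb, 58 (17.96%) 25 to 50 kb and 15 (4.64%) 50 to 100 kb, while CpG-poor regions had 24.5%, 38.6%, 23.1% and 13.7% in the same bins. The nearest start was that of a protein-coding gene for 175 regions (54.2%), a lincRNA for 40 and a processed pseudogene for 40. RefSeq, a second annotation on the same build, placed a start within 1 kb of 48 regions (14.9%), against 3.19% of CpG-poor regions. Starts of ribosomal RNA genes were not among those counted, and neither was that of the small RNA gene Rn4.5s, which lay inside 1 of the 323 regions. The start belonged to a gene with only a provisional Gm or LOC name for 22 of the 48. The others included transcript starts of Arhgap32, a GTPase-activating protein, at 3 bp from the midpoint, of the zinc finger gene Zfp869 at 12 bp, of Wnt3 at 286 bp (nearest coding gene Nsf) and of Mga, a MAX partner, at 443 bp. Within the 323 regions, then, a region far from every GENCODE M21 start was not always far from a start in another annotation.

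A share of 13.9% of the regions (45 of 323) was repeated sequence, meaning that at least 50% of the 31-base words of the interval occurred elsewhere in GRCm38. In summit windows the share was 13.9% for CpG-rich and 1.76% for CpG-poor distal regions. The repeated regions were of 3 kinds. The first comprised 15 copies of a tandem array on chromosome 6, the second 11 regions that were at least 75% soft-masked interspersed repeat (34 to 214 copies of their words), and the third 19 regions with 2 to 8 copies. The remaining 278 regions are called single-copy. The study's methods allowed a read several alignments, so that heights on repeated sequence can hold reads of other copies and the height of 1 copy cannot be told apart from their number.

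The tallest group of CpG-rich distal regions was the array on chromosome 6, between Ezh2, the catalytic subunit of Polycomb repressive complex 2, and Pdia4, a disulfide isomerase. A 100-base window of its tallest copy matched 16 places on 1 strand with 98 to 100% identity, 8 on each side of a gap of 54.6 kb, with steps of 4.26 to 5.598 kb (median 4.34) between neighbours inside a block. All 16 had a peak in all 4 libraries, and 15 were members, 7 named after Ezh2 (the first at chr6:47654843-47656218) and 8 after Pdia4 (the last at chr6:47771993-47773185). The eighth copy, at chr6:47684920-47686855, missed the rule with a CpG ratio of 0.58. RefSeq annotates the gene Rn4.5s at chr6:47654921-47655094 on the minus strand, inside the first copy. Rn4.5s encodes 4.5S RNA, a small noncoding RNA of rodents that is transcribed by RNA polymerase III from tandem repeats. Its 174 bases matched without gaps at 90% identity or more (94.8 to 100%) at places that overlapped 12 of the 16 copies, 11 of them members, and in all 12 the summit lay on the 5′ side of the RNA gene, 140 to 264 bp from its centre.
Heights over the 15 members ran from 179 to 217 reads in WT replicate 1, 199 to 247 in WT replicate 2, 173 to 226 in KO replicate 1 and 187 to 229 in KO replicate 2. Their relative heights were 40.5 to 49.2, 29.1 to 36.1, 28.7 to 37.5 and 27.9 to 34.1, several times the median over all 323 regions. Their fold over the local background was not high, at 1.93 to 4.73. The medians of that fold over all 323 regions were 4.99, 4.59, 4.41 and 4.45. Only the last copy, at 4.55 in KO replicate 1, lay above the median of its library. All 15 lay in a run of raised background in WT replicate 1, WT replicate 2 and KO replicate 2. The WT and KO ranges of reads overlapped, and WT replicate 1 stood above the other 3 libraries on the relative scale. The copies varied little within a library, with an SD of 13.1, 15.2, 13.5 and 14.0 reads.

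**Figure D2:**
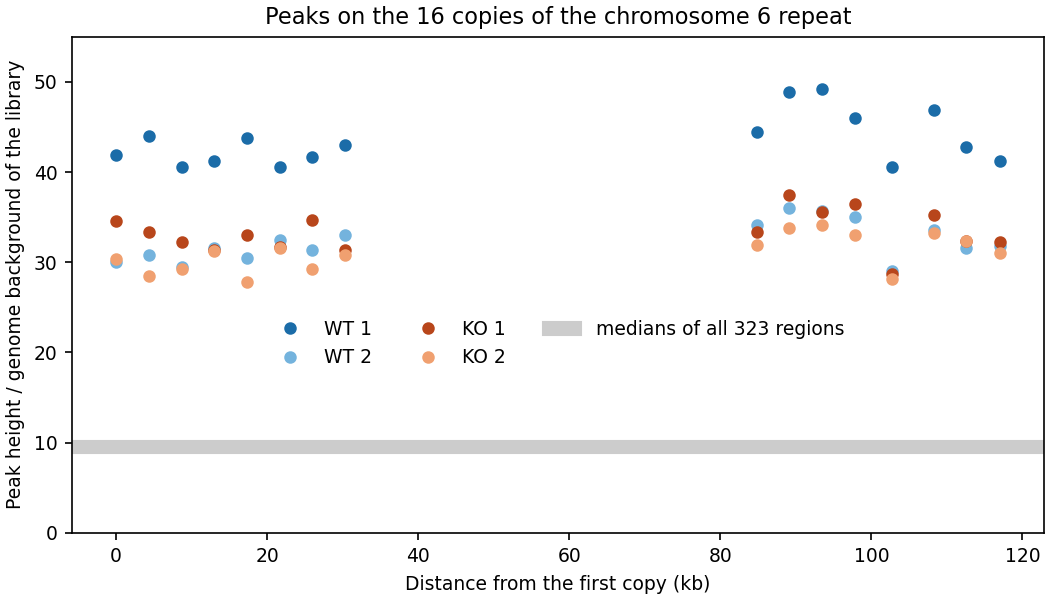
Peak height divided by the genome background of the library on the 16 copies of the chromosome 6 repeat, against the distance of the copy from the first one in kb. Each point is 1 copy in 1 library, and the grey band spans the 4 libraries' medians over all 323 regions (8.80 to 10.2). The 15 member copies sat between 27.9 and 49.2, in 2 blocks of 8 copies.

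Outside the array the tallest region was near Gm8797 (chr3:5860261-5861081), whose start lay 109.9 kb away. The region had 272 and 300 reads in WT and 276 and 300 in KO tumors, at least 43.8 times the background in every library. Its words had a median of 6 copies in GRCm38. Copies missing from that assembly could not be counted, here or below. The second, in an intron of Filip1l and Cmss1 (chr16:57391063-57391941), had 208 and 251 reads in WT and 225 and 230 in KO tumors, and a median of 2 copies. A region near Samd9l (chr6:3200758-3201692, coding start at 183.8 kb) had 115 and 138 reads in WT and 125 and 122 in KO tumors. It shared 59.6% of its words with the annotated ribosomal RNA sequence Rn18s-rs5 on chromosome 17. What sequence the regions near Gm8797 and in Filip1l and Cmss1 hold copies of was not determined. Groups overlapped in all 3. By the lowest relative height, the first 10 of the 323 regions were thus Gm8797, Filip1l and 8 copies of the array, and none was single-copy.

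The tallest single-copy regions were lower than the array but above the promoter median given below. The tallest, chosen after the values were seen, was chr8:69716317-69717460, with 144 and 164 reads in WT and 142 and 161 in KO tumors, 12 bp from a RefSeq start of Zfp869. Next came the region near Ptma, the gene of prothymosin alpha (chr1:86486856-86488170), with 124 and 148 in WT and 138 and 158 in KO tumors, which lay 13854 bp from any GENCODE start. The groups overlapped in both. A second region near Ptma (chr1:86503733-86504745) had 92 and 96 in WT and 88 and 117 in KO tumors. The region with the highest CpG ratio, the exon of Apba1, an adaptor protein of neuronal vesicle traffic, was low in comparison, with 24 and 43 in WT and 28 and 33 in KO tumors at a ratio of 1.20. An exon of Cacna1a, a subunit of a neuronal calcium channel, had a ratio of 1.18. Its peak reached 27 and 36 reads in WT and 48 and 40 in KO tumors, without overlap as reads. Divided by the genome background, the groups did overlap, with 6.12 and 5.26 for WT against 7.97 and 5.96 for KO tumors. This exon did not pass the limma test described below. At the other end, the region near Myof, a membrane repair gene, had a ratio of 0.60 and heights at 26 and 24 in WT and 25 and 23 in KO tumors, and the one near Glis2, a zinc finger gene, had 68 and 66 in WT and 51 and 88 in KO tumors. The longest region, 2539 bp with 253 CpG sites in an intron of the noncoding gene Lncppara (nearest coding gene Ppara, a nuclear receptor), had 90 and 100 in WT and 98 and 118 in KO tumors. A long region of 2096 bp in an intron of Cntn3, a neural adhesion gene, had 94 and 111 in WT and 105 and 99 in KO tumors. High and low regions were thus found at both ends of the CpG ratio.
Across the 323 regions the CpG ratio and the relative height were weakly related, with a Spearman correlation of 0.04 to 0.10 in the 4 libraries, whereas the correlation with width was 0.49 to 0.52 and with the number of CpG sites 0.35 to 0.40. These are descriptions over regions of the same libraries, and width and height are both set by the extent of a peak.

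Peaks on CpG-rich distal regions were taller than on CpG-poor ones in every library and lower than on CpG-rich promoters. The median relative height of the 323 regions was 10.2 and 9.05 in the WT and 8.80 and 9.54 in the KO libraries, replicate 1 first. For CpG-poor distal regions it was 5.66, 6.43, 5.97 and 5.51, and for CpG-rich promoters 15.6, 13.1, 12.9 and 13.6. The difference of median log2 heights between CpG-rich and CpG-poor distal regions was 0.67 ± 0.17 (SD, n = 4 libraries), a ratio of 1.59, positive in 4 of 4 libraries (exact sign-flip permutation over libraries, two-sided p = 0.125, which is the smallest that 4 libraries allow). CpG-rich promoters exceeded CpG-rich distal regions by 0.55 ± 0.05 (SD, n = 4; exact sign-flip p = 0.125, again the smallest possible). Both differences were smaller over the local background. On the log2 scale of fold over local background they were 0.15 ± 0.10 and 0.36 ± 0.02 (SD, n = 4), and the local background under the peak had a median of 1.77 to 1.91 times the genome background in CpG-rich and 1.11 to 1.247 times in CpG-poor regions. With composition read in the summit window the difference of log2 heights was 0.36.
The difference varied as much within a group as between groups. It was 0.85 and 0.49 in the WT and 0.56 and 0.79 in the KO libraries. After each library was centred on its median over all regions, WT replicate 1 had the highest value in 188 of the 323 regions (58.2%), KO replicate 2 in 86 (26.6%), KO replicate 1 in 30 and WT replicate 2 in 19, and WT replicate 2 had the lowest value in 182 (56.3%). CpG-rich promoters showed the same order, with WT replicate 1 highest in 67.7%, while in CpG-poor distal regions each library was highest in 22.7 to 26.3%. WT replicate 1 and KO replicate 2, 1 library of each group, were thus the highest on CpG-rich sequence at both kinds of place, and the cause was not tested.

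**Figure D3:**
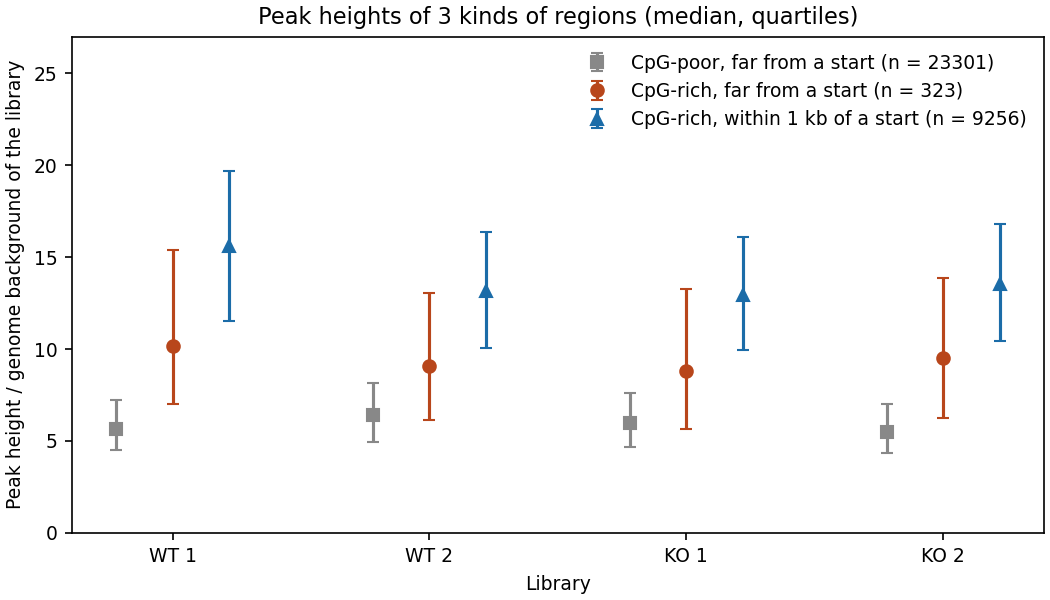
Median peak height divided by the genome background (points) with lower and upper quartiles (bars) in each library for CpG-poor distal regions (n = 23301), CpG-rich distal regions (n = 323) and CpG-rich promoters (n = 9256). CpG-rich distal medians of 8.80 to 10.2 lay between the CpG-poor medians of 5.51 to 6.43 and the promoter medians of 12.9 to 15.6 in all 4 libraries.

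Next, heights were compared between KO and WT tumors to ask whether the host's Esm1 genotype was accompanied by a difference at these regions. Of the 323 regions, 1 was higher and 0 were lower in KO tumors at a Benjamini-Hochberg adjusted p under 0.05 by limma, fitted over all 48088 regions with a peak and a recovered height in all 4 libraries. Over all regions the background was 0.0374% called higher and 0.00208% called lower, 19 regions in all, of which 13 lay in a run of raised background around Myc on chromosome 15, in both KO libraries, that held no CpG-rich distal region. At an unadjusted p under 0.05 there were 13 regions of 323 (9 higher and 4 lower, 4.02%), against 3.08% over all regions. Both KO libraries lay above both WT libraries in 26 regions (8.05%, background 12.8%) and below both in 32 (9.91%, background 13.3%). The median difference on the log2 scale was −0.02 over the 323 regions, with quartiles of −0.15 and 0.10, and −0.004 over all regions, with quartiles of −0.14 and 0.14. The per-library medians were 0.45 ± 0.19 (SD, n = 2) for WT and 0.47 ± 0.14 (SD, n = 2) for KO libraries on the centred log2 scale, and an exact permutation of the 4 libraries gave p = 1, where the smallest possible was 0.333. The median half-width of the 95% interval of a single region was 0.49 on the log2 scale before any adjustment, and after adjustment over 48088 regions a difference of 0.84 did not pass. The prior degrees of freedom of the fit were infinite, so every region took its spread from the trend over regions of like height and not from its own 4 values. In bulk samples, a region open in fewer cells and one less open in every cell cannot be told apart.
The 1 called region (chr17:6476553-6477428) lay in an intron of the noncoding gene Gm26848, with Dynlt1b, a dynein light chain gene, as the nearest coding gene at 46.9 kb. Its heights were 31 and 42 reads in WT and 64 and 98 in KO tumors, without overlap, a log2 difference of 1.02 (SE 0.23, limma adjusted p = 0.037, higher in 2 of 2 KO libraries). It was repeated sequence, with 65.4% of its words elsewhere and a median of 2 copies. The fold over local background was 4.48 and 3.90 in WT and 4.04 and 4.26 in KO tumors, a log2 difference of 0.03, so the rise in height went with a rise of the local background. The other 2 regions of the same locus were repeated sequence as well. The one at chr17:6492658-6493368 had 25 and 34 reads in WT and 56 and 57 in KO tumors, a difference of 0.84 that did not pass (limma adjusted p = 0.54), and the one between them at chr17:6489663-6490745 had 56 and 81 in WT and 89 and 82 in KO tumors. The call at chr17:6476553-6477428 held in 2 of 10 alternatives. Its limma adjusted p was 0.22 when WT replicate 2 was left out and 1.0 when KO replicate 2 was, against 0.0061 and 0.044 when WT or KO replicate 1 was, and the log2 difference stayed positive in all 10.
The 3 regions with the lowest p in the other direction did not pass. They were near Zfp978 (41 and 47 reads in WT, 35 and 27 in KO tumors, log2 difference −0.63), near Grhl2, an epithelial transcription factor gene (47 and 53 in WT, 39 and 34 in KO, −0.57) and near Abcc4, a transporter gene (35 and 47 in WT, 31 and 28 in KO, −0.58). A region near Wnt7b (chr15:85625319-85626512) had 44 and 40 in WT and 43 and 100 in KO tumors. KO replicate 2 alone was high there, and it alone had a run of raised background over that locus, with 3 of the 323 regions inside it, both near Wnt7b and the longest region near Ppara.

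**Figure D4:**
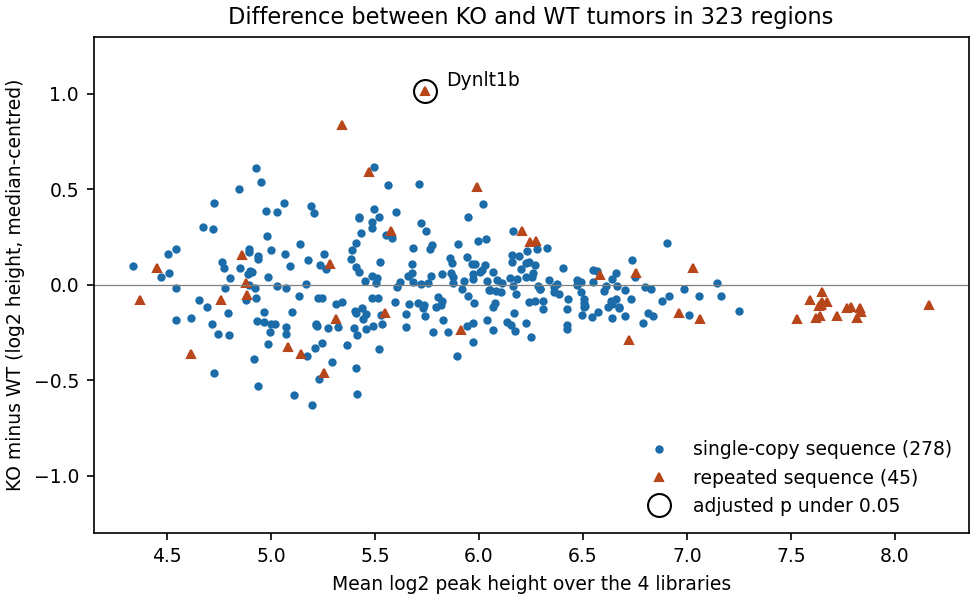
Difference between KO and WT tumors in log2 peak height after median-centring, against the mean log2 height over the 4 libraries, for 278 single-copy (dots) and 45 repeated (triangles) CpG-rich distal regions. Differences ran from −0.63 to 1.02, and the circled region with Dynlt1b as the nearest coding gene was the only one with an adjusted p under 0.05.

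Genes of neural development were the nearest coding genes of several regions. The nearest coding start could be far, at a median of 21.6 kb and up to 350.5 kb over the 323 regions. It lay at 117.0 kb for Lhx1 and 74.4 kb for Sox17, at 97.6 and 92.6 kb for the Grhl2 and Abcc4 regions above, and at 76.7 kb for Chd2. Some regions named after a gene lay close to a RefSeq start of another gene with a Gm name. The distance was 283 bp for Grhl2, 964 bp for Pax3, and 266 and 841 bp for the 2 regions of Chd7. Of 107 homeobox and other developmental transcription factor genes, 8 had a CpG-rich distal region (8 regions, 2.48% of the 323, against 148 or 0.635% of CpG-poor distal regions). The tallest of them was near Gbx2, a homeobox gene of the midbrain-hindbrain boundary, in an exon of Asb18, with 63 and 72 reads in WT and 58 and 71 in KO tumors. The others were near Meis2 (33 and 46 in WT, 52 and 56 in KO), Pax3 (33 and 47, 31 and 35), Lhx1 (32 and 46, 30 and 43), Irx5, Cux1, Dlx2 and Gata4. Of 31 SOX and neural stem cell factor genes, 5 had 6 regions (1.86% against 0.382%). Among these, 3 genes encode nuclear factor I proteins, which guide glial differentiation: Nfib with 89 and 108 in WT and 108 and 125 in KO tumors, Nfix with 76 and 85 in WT and 56 and 93 in KO tumors, and Nfia, whose taller region had 35 and 41 in WT and 44 and 79 in KO tumors. The POU genes Pou3f3 (45 and 63, 53 and 68) and Pou3f2 (38 and 53, 42 and 39) completed the group. No member of either list passed the limma test in either direction.
Among 21 oligodendrocyte precursor and proneural genes, Chd7, a chromatin remodeler, had 2 regions, at 95 and 115 reads in WT and 96 and 121 in KO tumors and at 75 and 41 in WT and 40 and 77 in KO tumors, and Zeb2 had 1, in its own exon, at 18 and 47 in WT and 33 and 27 in KO tumors. Of the 39 Wnt genes listed, the ligands Wnt7b and Wnt11 had 3 regions. The tallest was near Wnt7b at chr15:85634205-85635404 with 137 and 144 in WT and 145 and 147 in KO tumors, 209 bp from a RefSeq start of D130051D11Rik. The ligand gene Wnt10a, which was not on the list, was the nearest coding gene of 2 regions. They had 50 and 67 in WT and 62 and 74 in KO tumors, and 71 and 81 in WT and 77 and 85 in KO tumors. Of 23 Notch genes, the ligand gene Dll4 had 1 region, at 34 and 43 in WT and 31 and 67 in KO tumors. Among PDGF receptor signalling genes, Pik3r1, a regulatory subunit of PI3 kinase, had a region at 47 and 62 in WT and 52 and 77 in KO tumors. Mga was the 1 gene of the MYC network with a region, at 61 and 80 in WT and 69 and 60 in KO tumors. The precursor and Wnt lists each held 0.929% of the CpG-rich distal regions, against 0.223% and 0.249% of CpG-poor ones. The Notch and MYC network lists each held 0.310%, against 0.176% and 0.116%, and the PDGF list held 0.619% against 0.159%. As reads the groups overlapped in each of these but the tallest Wnt7b region, where both KO tumors were higher by a few reads, and none passed the test.
Of 50 chromatin regulator genes, 5 had 12 regions (3.72%, against 0.627% of CpG-poor distal regions). Of the 12, however, 7 were copies of the array assigned to Ezh2 and 1, in an intron of Jarid2, was repeated sequence (120 and 156 in WT, 138 and 124 in KO). The single-copy ones were near Arid1b (75 and 97 in WT, 82 and 104 in KO), Cbx8 (39 and 81, 53 and 71) and Bahcc1 (52 and 75, 68 and 100 for 1 of its 2). Trappc9, which is imprinted in brain, had 113 and 151 in WT and 113 and 143 in KO tumors. Among 22 endothelial and mural cell genes, Sox17 alone had a region (0.310% against 0.150%), at 46 and 56 in WT and 48 and 51 in KO tumors. Neuronal channel and synapse genes had 2 regions (Celf4 and Cacna1a), 0.619% of the 323 against 1.48% of CpG-poor regions. No region was nearest to a Hedgehog gene, an angiogenesis or hypoxia gene, a collagen or matrix gene, a microglial, astrocyte or mature oligodendrocyte gene, or 1 of the 28 glioma tumor suppressors and oncogenes. Each of these lists held only 0.082 to 0.313% of CpG-poor distal regions, so their absence from a set of 323 says little. No list was tested for its share.

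Short sequence motifs were then counted in the 200 bp around each summit, on both strands. The GC box of Sp and KLF factors (GGGCGG) was present in 162 of 323 regions (50.2%), against 6.49% of CpG-poor distal regions and 66.1% of CpG-rich promoters. The MYC and MAX E-box (CACGTG) was present in 8.36%, 3.61% and 7.36% in the same order, the ETS motif (CCGGAAG) in 4.95%, 1.09% and 13.5%, and the NRF1 motif (CGCATGCG) in 2.17%, 0.236% and 2.96%. These 4 motifs hold a CpG, so their number rises with the composition that chose the regions. Among motifs without a CpG, the CTCF motif was present in 18 regions (5.57%), against 5.0% and 1.33%. The AP-1 motif (TGANTCA) was present in 2.79%, 14.0% and 1.85%, the TATA box (TATAAA) in 2.17%, 11.1% and 1.75%, the OLIG and NEUROD E-box (CATATG) in 0.929%, 6.48% and 0.454%, and the CCAAT box of NF-Y in 13.9%, 20.97% and 27.2%. The CTCF share was thus near that of CpG-poor regions and the NF-Y share was the lowest of the 3. The AP-1 and TATA shares were near those of CpG-rich promoters. The summit windows had a median GC content of 68%, 48.5% and 69.5% in the same order. The rule on GC content thus also bears on motifs without a CpG, above all on words mostly of A and T. Its part in the AP-1, TATA and CATATG shares was not tested. The tallest region with a CTCF motif lay near Chd2, a chromatin remodeler gene, with 112 and 115 reads in WT and 101 and 122 in KO tumors. All 18 were single-copy. With a GC content of at least 55% and a CpG ratio of at least 0.65 the CTCF share was 2.62%. A match is a description of the letters only.

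**Figure D5:**
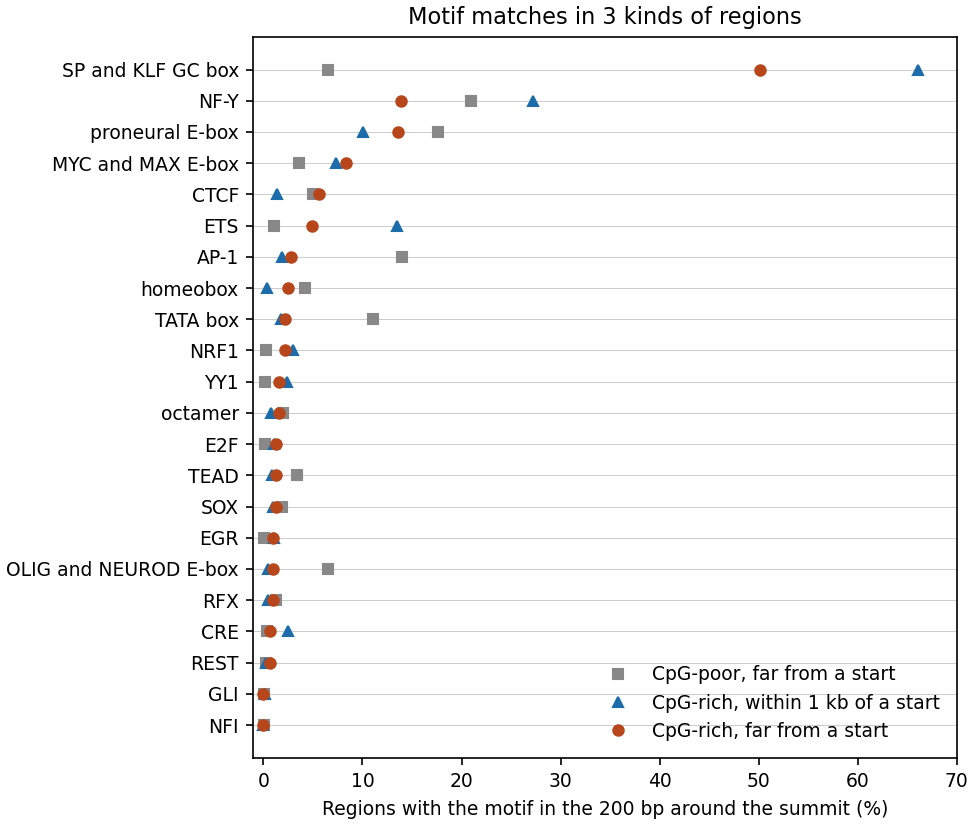
Percent of regions with each of 22 motifs in the 200 bp around the summit, for CpG-poor distal regions (squares), CpG-rich promoters (triangles) and CpG-rich distal regions (circles). CpG-rich distal regions reached 50.2% for the GC box, between 6.49% and 66.1%, and 2.79% for AP-1, where CpG-poor regions had 14.0%.

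Finally, detection was compared across libraries. Before the requirement of a peak in all 4 libraries there were 753 CpG-rich distal regions, of which 42.9% had a peak in all 4, 8.50% in 3, 9.16% in 2 and 39.4% in 1. CpG-poor distal regions had 32.4%, 18.8%, 16.8% and 32.0%. In 11 CpG-rich regions (1.46%) the WT tumors alone had a peak in each library, and in 13 (1.73%) the KO tumors alone did. The shares among CpG-poor distal regions were 1.60% and 1.80%. WT replicate 1, which had the fewest peaks, was the only library missing in 34, and the other libraries in 8 to 12 each. To see how much CpG-rich sequence was open, the genome was scanned for stretches of at least 500 bp with a GC content of at least 50% and a CpG ratio of at least 0.6. Of 1831 such autosomal islands that lay 5 to 100 kb from a start and were less than 50% soft-masked, 31.3%, 34.2%, 32.6% and 34.3% overlapped a peak in the 4 libraries, 513 (28.02%) did in all 4 and 1109 (60.6%) in none. Of 13246 islands within 1 kb of a start, 86.4 to 88.5% overlapped a peak in a library. Distal islands with a peak in all 4 libraries had a median length of 741 bp and a CpG ratio of 0.72, and those without any had 612 bp and 0.66. The lowest height called was 13 to 16 reads, and accessibility below it was not measured.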

How the data were processed

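ATAC-seq peak lists of 2 WT and 2 KO libraries were used, 1 per tumor, grouped by sample title, including KO replicate 2, whose file is named on another pattern. MACS2, HOMER and mm10 are named in the submitters' notes on processing, without versions, whereas the study's methods describe alignment by Bowtie2 to GRCm38 with several alignments allowed per read, removal of mitochondrial reads and duplicates, and peak calling by Genrich in its ATAC-seq mode, which sets intervals on transposase cut sites. The columns follow MACS2 arithmetic, and for MACS2 no source states a shift for the cut site. The columns deposited by the authors give each peak a score, a fold ratio over the local background, and p- and q-values as −log10. No read counts were used. Heights were recovered from fold and −log10 p, which determine a whole pileup at the summit within 0.001 in all but 2 of 331481 peaks. Heights are not normalised, and the lowest background of a library served as its genome background.

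Starts and gene models came from GENCODE M21, and sequence and a second set of starts from RefSeq (GRCm38.p6). A region was named after the nearest start of a protein-coding gene. The place was that of the 200 bp summit window, taken in the order coding exon, UTR, noncoding exon, intron. In every library the median log2 height over all regions with a peak in all 4 was subtracted, and log2 heights were compared by limma 3.58.1 (R 4.3.3) with a mean-variance trend, KO minus WT, adjusted over all 48088 regions. On simulated data the fit and the recovery of heights were checked. With 2 tumors a group, p-values speak for these samples only. In the main fit the spread of a region came from the trend over regions of like height.

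Regions were named by a fixed rule: the 10 with the highest lowest relative height, the 5 highest and 5 lowest by CpG ratio, the 5 longest, up to 5 past the limma test in each direction or otherwise the 3 with the lowest p, the genes with most regions, up to 4 per gene list (17 lists) and the 2 on either side of each threshold. The regions, lists and 22 motifs were chosen with earlier results of these data known. Alternatives covered scaling, the fold scale, a replicate block, no trend, a −log10 q of at least 5, coverage, distance, gene type, summit window, stricter composition, width, each library left out and a segment of chromosome 15. Single-copy sequence alone and regions without a nearby RefSeq start were added after the data were seen. Samples with equal numbers deviated from their group means with a correlation of −0.34 over 48054 regions, so the numbers were not taken as pairs. Some items of the study's description and of the named regions are not reported here.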

Additional observations from a re-analysis of the deposited data

Results flagged for a closer look

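A signal outside the regions described above was a set of 184 CpG-rich distal regions with a peak in KO replicate 2 alone. It was picked out because the other libraries had 26 (WT replicate 1), 67 (WT replicate 2) and 20 (KO replicate 1) such regions of their own. The 184 had a median relative height of 3.43 and were mostly interspersed repeat, with a median of 91.3% soft-masked sequence, and 107 of them were at least 75% masked. In the other libraries the medians were 0, 6.18 and 1.5%. CpG-poor distal regions found in KO replicate 2 alone numbered 6094 and had a median of 8.97% masked sequence. Among distal islands that were at least 50% masked, a peak was called in 0.70%, 1.10% and 1.23% in WT replicate 1, WT replicate 2 and KO replicate 1 and in 2.70% in KO replicate 2. The cause was not tested, and since 1 KO library shows it and the other does not, no direction between groups was drawn from it.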

How the results depend on the processing

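The number of CpG-rich distal regions higher in KO tumors was 0, in place of 1, with heights scaled by the genome background, with fold over local background, without the raised background of chromosome 15, without the mean-variance trend, with a −log10 q from 5 upwards and, chosen after the data were seen, with single-copy sequence alone. It was 0 to 1 when each library was left out, and 0 without WT replicate 2 or without KO replicate 2. A single library left in a group was assumed to vary like the others. The number lower in KO tumors was 0 under all 11 alternatives. The region with Dynlt1b as the nearest coding gene had adjusted p-values of 0.0061 to 1.0 over its alternatives. It was at 0.071 with a −log10 q of at least 5, at 0.11 without the trend and with the genome background, and at 0.13 without the raised background of chromosome 15. The median KO minus WT log2 height ran from −0.22 to 0.14 when each library was left out, so its sign depended on the library.

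The WT and KO tumors of the same number are not tied by any source, and the deviations of WT replicate 1 and KO replicate 1 from their group means correlated at −0.34 over 48054 regions. With the replicate number as a block, 0 CpG-rich distal regions were higher in KO tumors, and 10 in place of 18 regions were higher over all regions. Over all regions, 51 and 25 were higher without the first or second WT library, 104 and 6 without the first or second KO library, 3 without the segment of chromosome 15, 10 among stronger peaks (−log10 q from 5 upwards) and 2 by the fold, and the numbers lower were 1, 16, 1, 1, 0, 0 and 6 in the same order.

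The rule set the number and the places of the regions. There were 202 regions at least 10 kb from a start, 563 with starts of protein-coding genes alone, 976 with composition read in the 200 bp summit window and 191 with a GC content of at least 55% and a CpG ratio of at least 0.65. Coding exons held 12.4%, 13.9%, 10.5% and 26.7% of them in this order. Between genes lay 64.9% at 10 kb and 46.4% with protein-coding starts alone. The CTCF share was 2.62% at the stricter composition. The share found in all 4 libraries was 52.1% with a −log10 q of at least 5, 37.1% where a library had to cover 50% of the region and 52.2% at the stricter composition. The height difference between CpG-rich and CpG-poor distal regions stayed positive under all 11 alternatives, from 0.15 with the fold to 0.73.

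The lists hold called peaks only, from 63000 to 100088 per library, so openness below the lowest height called was not measured. The number of reads per library was not used here, and heights on repeated sequence depend on how reads with several alignments were placed.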
